A study of Mus musculus with 36 samples.

Results

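Cytochrome P450 genes of families 1 to 3 were followed in regenerating mouse liver. Members were all rows of the count tables whose symbol was Cyp1, Cyp2 or Cyp3 followed directly by a letter and a number, with 2 pseudogene symbols left out. The rule used names and no measured value. It gave 59 of the 21955 listed genes. Of these, 46 passed the filter on low counts, which kept 13436 genes in all. The other 13 held between 4 and 150 counts summed over all libraries and were not tested. They were Cyp2b19, Cyp2b23, Cyp2c65, Cyp2c66, Cyp2d12, Cyp2d34, Cyp2j8, Cyp2j11, Cyp2j12, Cyp2j13, Cyp2s1, Cyp2w1 and Cyp3a57.

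Livers came from mice of the inbred strain C57BL/6JN, aged 4 months (young) or 18 months (old). They were taken before regeneration and at time points labelled 48, 72, 96, 120 and 240, with 3 biological replicates in each of the 12 groups and 36 libraries in all. The labels name old mice as the treated group. No altered allele, drug or sex is given for any group. Neither the unit of the time points nor the way regeneration was started is given in the sources used here.

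P450 enzymes are heme proteins of the endoplasmic reticulum that oxidize drugs, pollutants, steroids, bile acids and fatty acids with electrons passed on by the reductase Por. In mouse liver several are zoned along the lobule, with Cyp1a2 and Cyp2e1 around the central vein and Cyp2f2 around the portal vein. Foreign compounds induce Cyp1 genes through the receptor Ahr, Cyp2b genes through Nr1i3 (CAR) and Cyp3a genes through Nr1i2 (PXR). A further set of Cyp2 and Cyp3 genes is known to be expressed at different levels in female and male mouse liver under the pattern of growth hormone release.

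Total counts were between 2328233 and 6034446 per library (median 4439170), so 3 counts corresponded to 0.490 to 1.29 CPM. CPM, the unit of levels below, is a count scaled to a common library total. Of 10 hepatocyte markers, 9 were in the tables, with a summed level of 55216 to 80172 CPM in the groups before and at 48. Transcripts of the Y chromosome (Uty, Kdm5d, Eif2s3y and Ddx3y) summed to 177 to 321 CPM in 12 libraries, of which each group held 1, and to at most 0.212 CPM in the other 24. The 3 old libraries at 48 were unlike each other: replicate 2 was the lowest of them for 28 of the 46 tested members, replicate 1 for 15 and replicate 3 for 3. Results that rest on 1 of them are given with and without it. P-values below are from edgeR's quasi-likelihood test, adjusted by Benjamini-Hochberg over all tested genes, and "called" means an adjusted p below 0.05. Errors of log2 differences are standard errors.

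**Figure D1:**
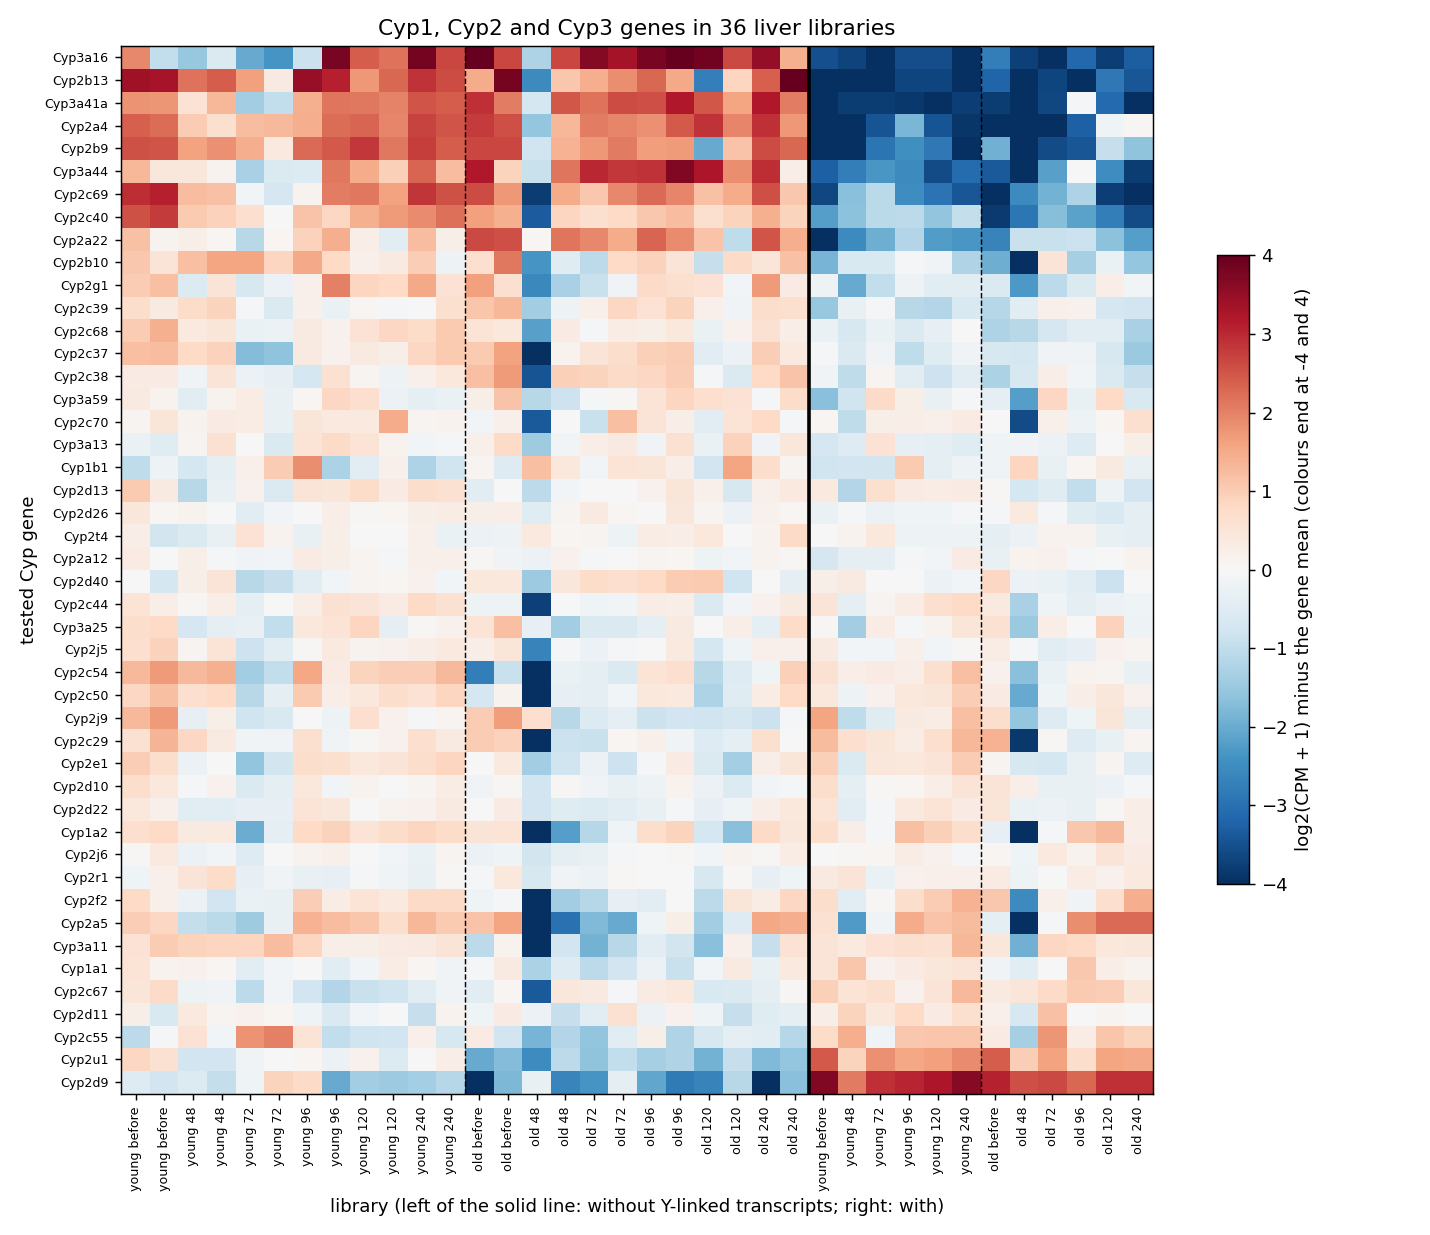
Level of the 46 tested members in each of the 36 libraries, as log2(CPM + 1) minus the mean of the gene (colour), with genes in the order of their difference between both kinds of library. Columns left of the solid line are the 24 libraries without Y-linked transcripts and columns right of it the 12 with them, and dashed lines part young from old. The upper 9 genes are low in most columns on the right, Cyp2d9 and Cyp2u1 are high there, and old replicate 2 at 48, the first old column at 48, is low for many genes.

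The members lie mostly in tandem clusters. By GENCODE M21 on GRCm38, the build named in the submitters' processing notes, 58 of the 59 could be placed. Chromosome 7 held 15 members, chromosome 19 held 15, chromosome 5 held 9, chromosome 15 held 8 and chromosome 4 held 7. The remaining 4 lay on chromosomes 3, 9 and 17. The Cyp2c genes spanned chr19:39007019-44029208 and the Cyp2a and Cyp2b genes, which interleave, lay within chr7:25897620-27037375. Near-identical copies share reads, which the authors' counting could have split or dropped. The share of 50-base windows of a transcript that also occur in another gene was 98.6% for Cyp3a41a. Of all its windows, 93.7% were shared with Cyp3a41b, a gene with no row in the tables. The share in another gene was 72.1% for Cyp2c40, 54.8% for Cyp2c69, 52.8% for Cyp2c67, 40.8% for Cyp2a5 and 38.0% for Cyp2a4. The split of reads between these genes and their near copies is therefore uncertain. In 29 members it was under 10%, among them Cyp1a2 with 5.0%.

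The largest differences among the members followed the presence of Y-linked transcripts. With that presence added to the 12 group means, 22 of 46 members differed, 14 lower and 8 higher in the 12 libraries with Y-linked transcripts. Over all tested genes 8.48% were called, 3.88% lower and 4.61% higher. Every one of the 10 tested genes on a list known as higher in female mouse liver was lower (median log2 difference -4.80). Both genes on the list known as higher in male liver, Cyp2d9 and Cyp2u1, were higher. These lists were chosen with earlier results of these data known, so they are not an independent check. Of the 7 pericentral members 0 were called, and the median log2 difference over all tested genes was -0.0046. The 4 other lower members were Cyp2a22, Cyp2c38, Cyp2c68 and Cyp2g1.

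Among the Cyp3a genes, which encode broad-specificity drug and steroid hydroxylases, Cyp3a16 (chr5:145436309-145469723) ranged from 0 to 1.41 CPM (median 0.313) in the 12 libraries with Y-linked transcripts. In the 24 without them it ranged from 2.19 to 276 CPM (median 101). The sets did not overlap (adjusted p = 9.59e-10). Levels in the first set were near the value of 3 counts, so no fold is given. Cyp3a41a had medians of 0.241 and 71.6 CPM (adjusted p = 5.81e-11). Cyp3a44 had medians of 6.13 and 142 CPM, a log2 difference of -4.56 ± 0.47 (adjusted p = 4.42e-08). The sets of both genes overlapped through old replicate 1 at 96, with 15.9 CPM for Cyp3a41a and 52.0 CPM for Cyp3a44, above the lowest values of 5.54 and 21.2 CPM in the other set. The other tested Cyp3a members, Cyp3a11, Cyp3a13, Cyp3a25 and Cyp3a59, were not called.

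The Cyp2b genes, of the phenobarbital-inducible family, were also lower with Y-linked transcripts. Cyp2b13 ranged from 0 to 1.43 CPM with Y-linked transcripts and from 1.66 to 371 CPM without them, with no overlap (adjusted p = 4.71e-11). Cyp2b9 had medians of 10.1 and 412 CPM, a log2 difference of -5.04 ± 0.52 (adjusted p = 4.2e-08). Cyp2b10, the classical Nr1i3 target, differed less, with medians of 11.9 and 40.1 CPM and a log2 difference of -1.61 ± 0.32 (adjusted p = 0.00101). The sets overlapped for Cyp2b9 and Cyp2b10.

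Promoter stretches are shown for pairs of genes of the same subfamily whose stretches are almost identical, since 1 pair moved together and the other did not. They are from RefSeq on GRCm38.p6, plus strand, 5′ to 3′, and run from 250 to 41 bases before the start site. Capitals mark bases that differ from the aligned base of the partner. Their positions are chr7:26173159-26173368 (Cyp2b9), chr7:26061245-26061454 (Cyp2b13), chr7:26306942-26307151 (Cyp2a4) and chr7:26835089-26835298 (Cyp2a5).
Cyp2b9: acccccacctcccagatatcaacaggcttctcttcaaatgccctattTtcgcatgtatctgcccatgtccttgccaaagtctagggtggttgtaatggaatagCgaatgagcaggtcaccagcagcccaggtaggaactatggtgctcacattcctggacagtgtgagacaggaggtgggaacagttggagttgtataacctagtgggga
Cyp2b13: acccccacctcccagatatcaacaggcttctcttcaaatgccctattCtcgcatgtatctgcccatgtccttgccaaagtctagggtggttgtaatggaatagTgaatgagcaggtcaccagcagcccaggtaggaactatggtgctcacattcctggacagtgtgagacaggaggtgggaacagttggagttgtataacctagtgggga
Cyp2a4: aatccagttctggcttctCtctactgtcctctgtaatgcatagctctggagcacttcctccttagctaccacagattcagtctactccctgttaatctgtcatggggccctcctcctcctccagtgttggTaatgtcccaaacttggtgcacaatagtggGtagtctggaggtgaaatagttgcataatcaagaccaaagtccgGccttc
Cyp2a5: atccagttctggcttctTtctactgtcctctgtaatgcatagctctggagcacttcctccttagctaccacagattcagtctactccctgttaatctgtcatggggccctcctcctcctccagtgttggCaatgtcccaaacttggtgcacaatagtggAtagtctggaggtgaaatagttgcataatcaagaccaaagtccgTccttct
The Cyp2b pair differed at 2 of 210 aligned bases and the Cyp2a pair at 4 of 209, since the windows of the Cyp2a pair are offset by 1 base.

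Cyp2a4, a steroid 15-alpha-hydroxylase, and Cyp2a5, a coumarin 7-hydroxylase, did not follow the split alike. Cyp2a4 ranged from 0 to 167 CPM (median 11.8) in the 12 libraries with Y-linked transcripts and from 54.3 to 1231 CPM (median 643) in the other 24. That is a log2 difference of -5.23 ± 0.53 (adjusted p = 3.18e-08). Cyp2a5 had medians of 689 and 517 CPM, a log2 difference of 0.51 ± 0.31 (adjusted p = 0.347). The 2 sets of Cyp2a5 values overlapped over nearly their whole range. Cyp2a22, chosen after its values were seen, had medians of 7.24 and 76.3 CPM (log2 difference -3.03 ± 0.32, adjusted p = 5.39e-08).

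Short motifs were searched on both strands of the 250 bases before each start, for the 51 members with a RefSeq promoter. The letters GTTAAT, part of the HNF1 recognition element, occurred in 6 members and in 6.4% of all 32851 promoters. The full element was not searched. Of the 6 members, 4 were among the 13 with a promoter that were lower with Y-linked transcripts (Cyp2a4, Cyp2c40, Cyp2c68 and Cyp2c69). The other 2 were Cyp2a5 and Cyp2d26, neither of which was called with against without Y-linked transcripts. The promoters of Cyp2c40, Cyp2c68 and Cyp2c69 were 73.1% to 91.3% identical to each other, so their matches are not independent. Enrichment was not tested. The spaced STAT5 palindrome TTCNNNGAA occurred in 2 members, in 0 of those 13 and in 7.0% of all promoters. The letters AGGTCA, part of nuclear receptor elements, occurred in 15 members, again 4 of those 13 (Cyp2b9, Cyp2b13, Cyp2c39 and Cyp3a44), and in 14.0% of all promoters. The Ahr core GCGTG occurred in 8 members, 2 of those 13, and in 28.2% of all promoters. A match says only that these letters stand in the window.

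Genes next to each other in the Cyp2c cluster, whose products act on steroids, arachidonic acid and drugs, differed in both directions. Cyp2c69 had medians of 8.29 CPM with and 195 CPM without Y-linked transcripts (log2 difference -4.22 ± 0.54), and Cyp2c40 of 7.22 and 63.4 CPM (-3.26 ± 0.33). Cyp2c39, Cyp2c68 and Cyp2c38 were also lower, by log2 differences of -1.11, -0.94 and -0.82. Between them on the chromosome lies Cyp2c67, which was higher by 0.95 ± 0.19 (medians 141 and 81.9 CPM, adjusted p = 0.00103). The windows it shares with Cyp2c40 were 40.0% of its transcript. Cyp2c55 was higher by 1.43 ± 0.34, with medians of 6.18 and 1.49 CPM. Cyp2c29, Cyp2c37, Cyp2c44, Cyp2c50, Cyp2c54 and Cyp2c70 were not called.

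**Figure D2:**
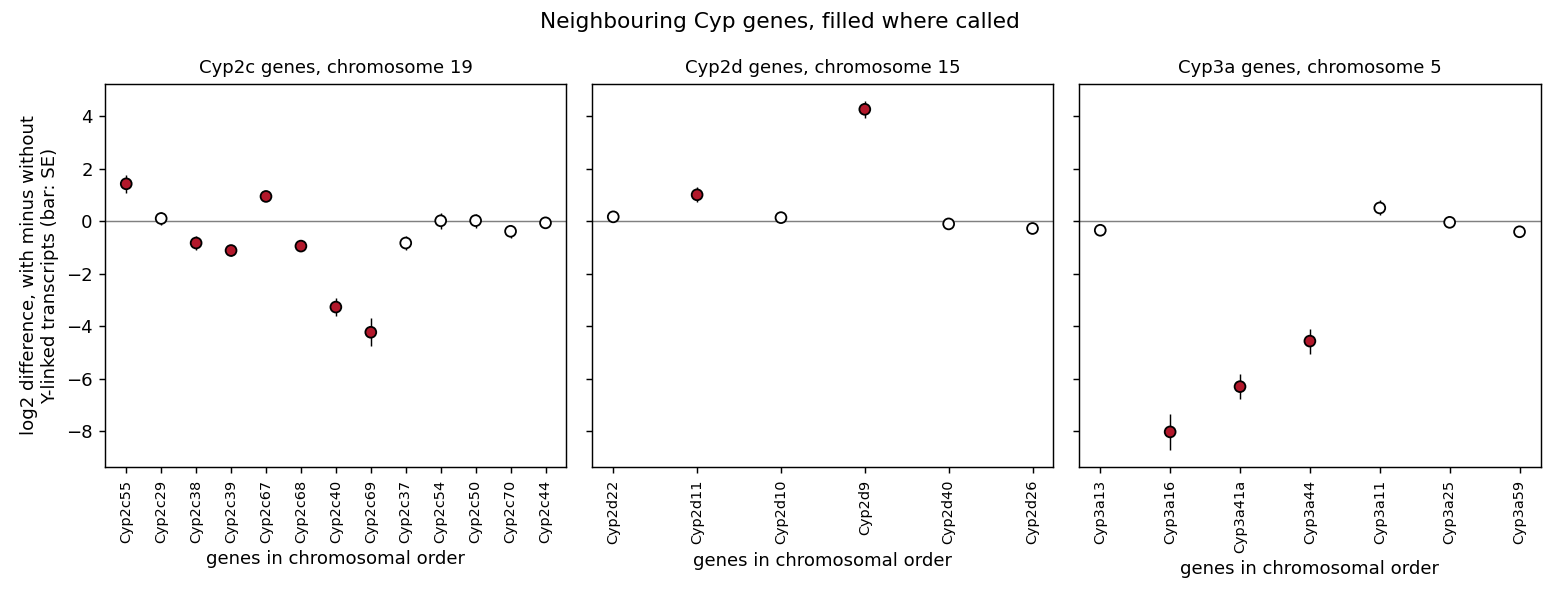
Log2 difference of tested Cyp2c, Cyp2d and Cyp3a members between the 12 libraries with and the 24 without Y-linked transcripts, in their order along chromosomes 19, 15 and 5. Bars are standard errors and filled points are genes called at an adjusted p under 0.05. Genes with large negative values stand beside genes near 0, and Cyp2c67 lies above 0 between Cyp2c39 and Cyp2c68, which lie below it.

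Cyp2d9, a steroid 16-alpha-hydroxylase (chr15:82433437-82456845), was the clearest member in the other direction. It was at least 246 CPM (median 445) with Y-linked transcripts and ranged from 1.36 to 107 CPM (median 21.6) without them. The sets did not overlap, and the log2 difference was 4.27 ± 0.31 (adjusted p = 4.65e-11). Cyp2u1, a fatty acid hydroxylase, had medians of 54.8 and 9.31 CPM (log2 difference 2.46 ± 0.18, adjusted p = 6.03e-11). The remaining higher members were smaller in size: Cyp2d11 by 1.01, Cyp1a1 by 0.70, Cyp2r1 by 0.27 and Cyp2j6 by 0.22. With the replicate number as a block the calls of Cyp1a1, Cyp2r1 and the lower member Cyp2c38 were lost. Those of Cyp2d11, Cyp2j6 and Cyp2r1 were lost with no filter on low counts. Without old replicate 2 at 48 the count of called members was 25, with 9 higher and 16 lower.

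**Figure D3:**
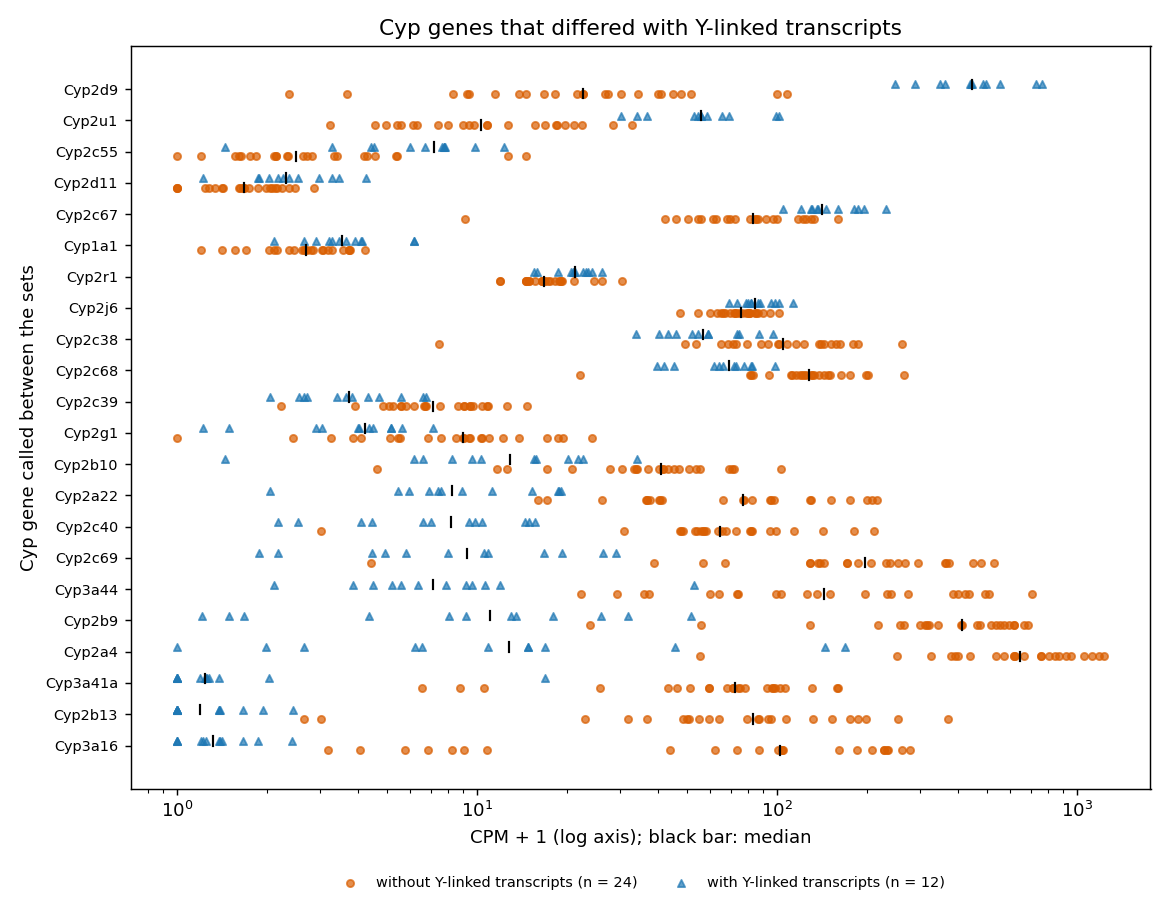
Level of the 22 called members in each library, as CPM + 1 on a log axis, for the 24 libraries without Y-linked transcripts (circles) and the 12 with them (triangles), with the median as a black bar. Cyp3a16, Cyp2b13 and Cyp2d9 show no overlap between the sets, while the other genes overlap in at least 1 library.

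Fitted within each age, the split called 16 members in young (background 1.72% of genes) and 15 in old (7.03%). The difference of the 2 terms was called for 1 of 46 members, Cyp2u1 (0.35% of all genes). In the young libraries without Y-linked transcripts Cyp2u1 ranged from 9.80 to 31.8 CPM (median 17.4, n = 12). In the old ones it ranged from 2.23 to 8.81 CPM (median 5.22, n = 12), so the ages did not overlap. With Y-linked transcripts the medians were 60.8 CPM in young and 53.2 CPM in old (n = 6 each), and these did overlap. The log2 difference between the sets was 1.80 ± 0.18 in young and 3.20 ± 0.20 in old, and the difference of these values was 1.40 ± 0.28 (adjusted p = 0.0142). Of the members called over both ages, Cyp1a1, Cyp2c38, Cyp2d11 and Cyp2r1 were called in neither age alone. Cyp2c55 and Cyp2j6 were not called in young alone, and Cyp2c39, Cyp2c67 and Cyp2g1 not in old alone.

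After the start of regeneration the members called against before were all lower in the fit of group means. In young liver at 48, 7 of 46 were called lower and 0 higher, where 9.88% of all genes were called lower and 22.1% in either direction. At 72 there were 5, all lower, beside 8.23% of all genes lower, 9.26% higher and 17.5% in either direction. In old liver at 48 there were 11, all lower, beside 12.1% lower and 24.3% in either direction. Counted in either direction, the share of members called did not exceed that of all genes in any of these comparisons. The median log2 difference of the tested members was -0.47 in young at 48, -0.77 in young at 72 and -1.30 in old at 48, where the medians over all genes were -0.01, 0.01 and 0.01. Point estimates were below 0 in both ages at 48 for 34 of 46 members. The members' share of all counts was 1.21% to 1.57% in young before, 0.769% to 1.14% at 48 and 0.840% to 1.02% at 72. In old livers it was 1.03% to 1.39% before and 0.286% to 0.807% at 48. The young count was 4 without replicate 2 before or replicate 1 at 48 and 3 without replicate 3 at 48, and at 72 it was 3 without replicate 1 or 2 at 72. With the Y-linked term added, 9 were called in young at 72, 8 lower and 1 higher, beside 9.43% of genes lower and 10.3% higher. The higher one was Cyp2c55, at 4.99, 0.746 and 2.42 CPM before and 11.7, 13.6 and 2.29 CPM at 72, with overlap (2.26 ± 0.75, adjusted p = 0.0339). In bulk tissue, fewer cells of a type and less RNA per cell cannot be told apart.

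Cyp2e1, the ethanol- and acetaminophen-oxidizing enzyme of the pericentral zone, fell in both ages. In young liver it was at 3270, 3347 and 2790 CPM before and at 1436, 1684 and 1145 CPM at 48, with no overlap (log2 difference -1.14 ± 0.35, adjusted p = 0.0182). At 72 it was at 575, 1030 and 2310 CPM (-1.26 ± 0.35, adjusted p = 0.0130). In old liver it was at 1824, 1733 and 2215 CPM before and at 1083, 652 and 983 CPM at 48 (-1.09 ± 0.35, adjusted p = 0.0236). The old libraries at 48 lay below all old libraries before. The old call was lost without old replicate 2 at 48 (adjusted p = 0.118) or old replicate 3 before (adjusted p = 0.0918). In young it was lost at 48 without young replicate 1 or 3 at 48 or replicate 2 before, and at 72 without young replicate 1 or 2 at 72, with adjusted p from 0.0514 to 0.101.

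Cyp2a5 had the largest fall at 48 in both ages. Young libraries held 569, 725 and 661 CPM before and 191, 175 and 75.4 CPM at 48 (log2 difference -2.15 ± 0.71, adjusted p = 0.0302). Old libraries held 282, 809 and 1102 CPM before and 8.22, 13.0 and 45.8 CPM at 48 (-5.03 ± 0.82, adjusted p = 0.000117). The groups did not overlap in either age. The old call held without any 1 of the 6 libraries compared. The young call did not: leaving out young replicate 1, 2 or 3 at 48, or replicate 2 or 3 before, gave adjusted p from 0.0561 to 0.144. At 96, 120 and 240 Cyp2a5 was not called in old liver, with mean levels from 705 CPM upward.

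Members of the Cyp2d, Cyp2j and Cyp3a groups fell in both ages or in young liver. Cyp2d22 was at 295, 273 and 236 CPM in young before and within 147 to 148 CPM at 48 (-0.86 ± 0.15, adjusted p = 0.000147). In old it was at 287, 200 and 257 CPM before and 169, 120 and 144 CPM at 48 (-0.78 ± 0.15, adjusted p = 0.000675). The groups of Cyp2d22 did not overlap, and the spread within them was small. Cyp2j9, of the arachidonic acid epoxygenase family, was at 17.4 to 23.0 CPM in young before and 4.90, 7.76 and 2.71 CPM at 48 (-2.00 ± 0.47, adjusted p = 0.00254). It was also called in young at 72 and in old at 48, 72 and 96, with log2 differences from -1.66 to -2.42. Each old call of Cyp2j9 was lost without old replicate 3 before (adjusted p from 0.0863 to 0.107), the highest of its group at 22.8 CPM. The call at 48 was also lost without old replicate 1 or 3 at 48 (0.0653 and 0.0513) and that at 96 without old replicate 2 at 96 (0.0922). Cyp2d13 was called in young at 48 (-1.45 ± 0.34), and Cyp2j5 in young at 72 (-1.10 ± 0.35, adjusted p = 0.0314). Cyp2d10 and Cyp3a25 were called in young at 48, Cyp2d10 also in young at 72, and Cyp3a25 also in old at 48. In young at 48 the call of Cyp2d10 was lost without replicate 1 or 2 before or 1 or 3 at 48 (adjusted p 0.0590 to 0.127), and that of Cyp3a25 without replicate 3 before or at 48 (0.0514 and 0.0994). The Cyp2j5 call was lost without any 1 of young replicates 2 and 3 before or 1 and 2 at 72, with adjusted p up to 0.146.

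Members called at 48 in old but not in young liver were Cyp1a2, Cyp2f2, Cyp2c29, Cyp2b10, Cyp2g1 and Cyp3a59. Cyp2b10 was at 5.17, 36.2 and 102 CPM in old before and 0.445, 3.65 and 16.2 CPM at 48, with overlap (-2.81 ± 0.98, adjusted p = 0.0358). That call was lost when any 1 of old replicates 2 and 3 before or 1 and 2 at 48 was left out (adjusted p 0.0535 to 0.308). Cyp2g1 was at 3.05, 17.6 and 8.44 CPM before and 0.222, 0 and 1.43 CPM at 48, which is near the value of 3 counts. Cyp3a59, of the same family as Cyp3a11, was at 19.3, 29.7 and 56.6 CPM before and 4.67, 11.1 and 13.7 CPM at 48 (-1.83 ± 0.48, adjusted p = 0.00698), a call lost without old replicate 3 before (0.0848). Cyp2e1, Cyp2a5, Cyp2d22, Cyp2j9 and Cyp3a25 were called at 48 in both ages. The count of 11 was 20 without old replicate 3 at 48 and 7 without old replicate 3 before. Fitted on these 6 libraries alone it was 1, Cyp2a5 (adjusted p = 0.0434), while the other 10 had adjusted p from 0.0507 (Cyp1a2) to 0.209 (Cyp2b10).

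**Figure D4:**
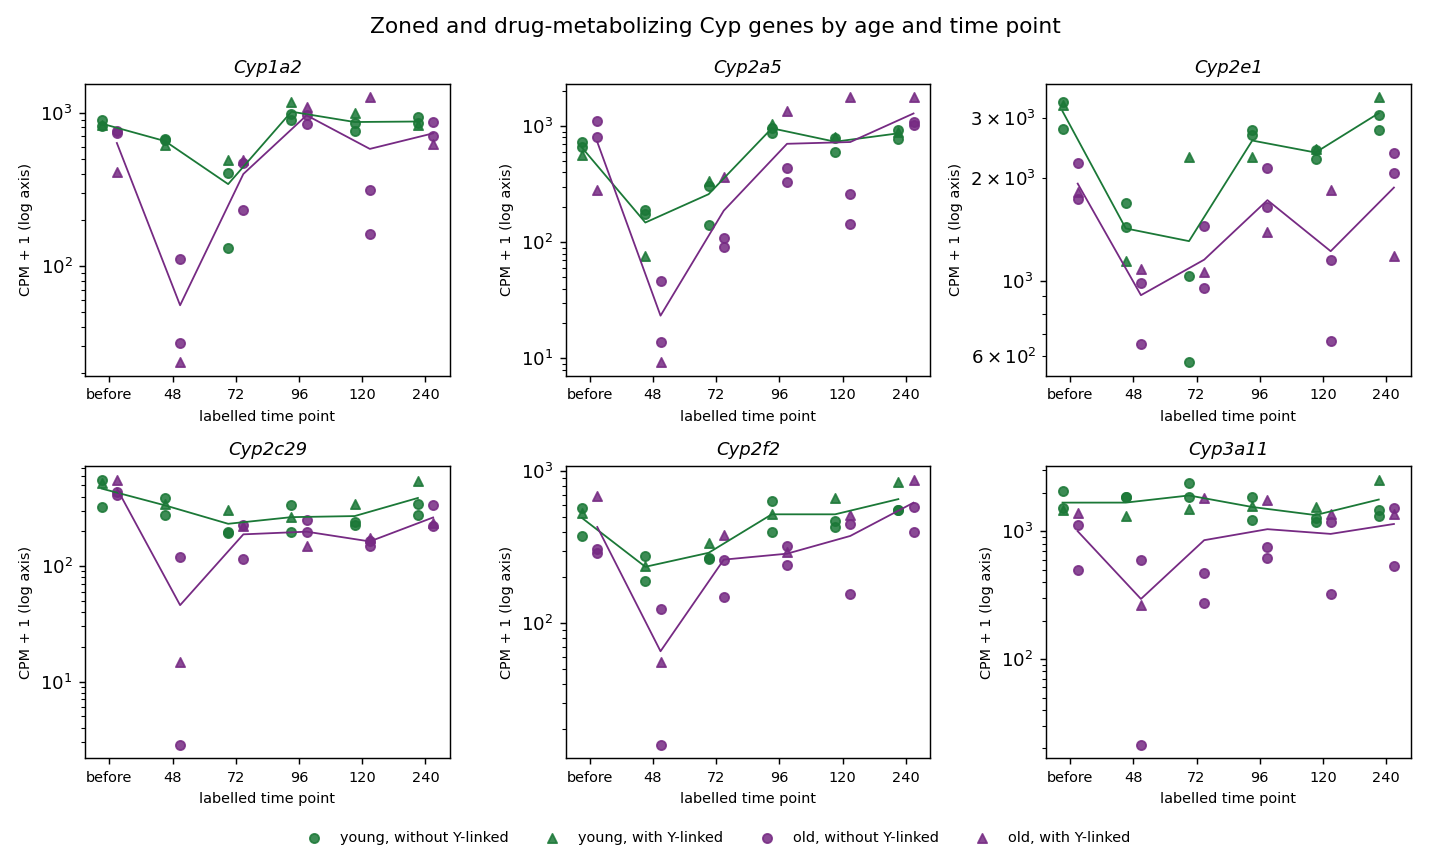
Level of 6 zoned or drug-metabolizing members by labelled time point, as CPM + 1 on a log axis, with young in green and old in purple, 1 point per library (triangles: with Y-linked transcripts) and lines through the group means of 3 libraries. The 3 old libraries at 48 have the lowest group mean in each of the 6 panels.

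Later time points gave few calls. In young liver 0 members were called at 96, 120 and 240, beside 1.44%, 0.595% and 0.26% of all genes (higher 0.685%, 0.223% and 0.0521%, lower 0.752%, 0.372% and 0.208%). At an unadjusted p under 0.05 there were 4, 2 and 1, and DESeq2 called 1, 0 and 0. In old liver Cyp2d22 and Cyp2j9 were called lower at 72 (12.6% of all genes, 6.71% higher and 5.92% lower) and at 96 (6.85%, with 3.77% higher and 3.08% lower). The count at 72 was 1 without old replicate 3 before and 4 without old replicate 3 at 72. At 96 it was 1 without old replicate 1 before or at 96 and 0 without old replicate 3 before or 2 at 96. Cyp2d22 was at 138, 147 and 172 CPM at 72 (-0.70 ± 0.15) and at 166, 166 and 194 CPM at 96 (-0.50 ± 0.15, adjusted p = 0.0462), still under the lowest old value before, 200 CPM. The call at 96 was lost without old replicate 1 or 3 before or old replicate 1 or 2 at 96 (adjusted p 0.174 to 0.185). At 120 and 240 in old liver 0 were called (4.05% and 0.141% of genes, with 1.96% and 0.0149% higher and 2.08% and 0.127% lower), with 5 and 1 at an unadjusted p under 0.05 and 1 and 0 by DESeq2.

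At 48 the old livers were lower than the young for 9 of 46 members and higher for 0, beside 6.88% of all genes lower, 4.5% higher and 11.4% in either direction. Of the 9, 5 are on the pericentral list of 7: Cyp1a2, Cyp2a5, Cyp2c29, Cyp2c50 and Cyp2c54. The others were Cyp2f2, the periportal member, and Cyp3a11, Cyp2r1 and Cyp1a1. The count was 3 without old replicate 2 at 48, 5 without old replicate 1 or without young replicate 1 at 48, and 15 without old replicate 3. Fitted on these 6 libraries alone it was 0, where 1 gene of all was called. With the Y-linked term it was 14, 13 lower and 1 higher (Cyp1b1), beside 7.5% of genes lower and 5.47% higher.

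Cyp1a2, which oxidizes caffeine and aromatic amines, was at 665, 677 and 613 CPM in young at 48 and at 22.4, 30.2 and 110 CPM in old. The difference was -3.58 ± 0.57 on the log2 scale (adjusted p = 0.000311), and the groups did not overlap. It stayed called without any 1 of the 6 libraries. Before, the old libraries were at 411, 732 and 756 CPM and the young at 833, 815 and 892 CPM. The fall in old from before to 48 was -3.54 ± 0.57 (adjusted p = 0.000106), whereas young at 48 differed from before by -0.38 ± 0.51 (adjusted p = 0.648), although its 3 values lay below those before. In young, values at 72 were 130, 401 and 491 CPM, close to the 232, 468 and 491 CPM of old. Cyp1a2 was the only member called in the age by time interaction (adjusted p = 0.0227), where 2.91% of all genes were called. That call was lost without young replicate 1 at 48 (0.0639), old replicate 1 at 48 (0.0973) or old replicate 2 at 48 (0.109). Cyp2r1 and Cyp2d22 had the next smallest p, at adjusted p = 0.128 and 0.257.

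Cyp2f2, which oxidizes naphthalene, was at 276, 189 and 237 CPM in young at 48 and 54.5, 14.8 and 124 CPM in old (-1.86 ± 0.49, adjusted p = 0.0120). Cyp2c29 was at 384, 277 and 343 CPM in young and 13.8, 1.82 and 119 CPM in old (-2.90 ± 0.64, adjusted p = 0.00322). For Cyp2a5 the young values were given above and the age difference was -2.72 ± 0.75 (adjusted p = 0.0162). Values did not overlap in any of the 3 genes. Without old replicate 2 at 48 the adjusted p was 0.0747 for Cyp2f2 and 0.101 for Cyp2a5, and Cyp2c29 kept its call. The Cyp2c29 difference was -2.34 without that library and -5.43 without old replicate 3. Its call was lost with only the 24 libraries without Y-linked transcripts (-2.46, adjusted p = 0.0774). In that fit Cyp2f2, Cyp3a11, Cyp2c50, Cyp2c54 and Cyp1a1 lost their calls between the ages at 48 too. The Cyp2a5 call was also lost without replicate 1 of either age at 48.

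Cyp3a11, the main inducible Cyp3a enzyme of mouse liver, was at 1862, 1846 and 1312 CPM in young at 48 and at 263, 20.3 and 599 CPM in old (-2.51 ± 0.72, adjusted p = 0.0222). Old replicate 2 gave the lowest value, and without it the difference was -1.96 (adjusted p = 0.0813). The call was also lost without replicate 1 of either age at 48. Cyp2r1, a vitamin D 25-hydroxylase, was at 25.2, 29.5 and 25.1 CPM in young and 14.9, 10.9 and 15.8 CPM in old (-0.94 ± 0.22, adjusted p = 0.00479), with tight groups and no loss of the call without any 1 library. Cyp1a1, the classical Ahr target, was at 2.29, 2.07 and 5.17 CPM in young and 1.11, 0.203 and 1.02 CPM in old (-1.99 ± 0.59, adjusted p = 0.0273). At these counts it lost its call without young replicate 3 or old replicate 2 at 48. Cyp1b1 was at 2.12, 2.85 and 1.97 CPM in young and 8.22, 10.5 and 5.73 CPM in old, which did not overlap but missed the threshold (1.82 ± 0.63, adjusted p = 0.0603). With the Y-linked term it was called higher in old (1.84 ± 0.62, adjusted p = 0.0484).

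The old libraries at 48 were unlike in other respects. For Cyp2c54 they held 25.3, 0 and 67.7 CPM (against young -2.49 ± 0.75, adjusted p = 0.0284) and for Cyp2c50 108, 5.47 and 344 CPM (-2.01 ± 0.63, adjusted p = 0.0366), in the order of replicates 1 to 3. Both calls were lost without any 1 of replicates 1 and 2 of either age at 48 (adjusted p 0.0561 to 0.108). Of genes outside the family, chosen after their values were seen, Mki67, a proliferation marker, was at 154, 14.0 and 561 CPM in the same order, against 2595, 1404 and 2867 CPM in young at 48. The acute phase gene Lcn2 was at 684, 1694 and 296 CPM. Albumin was at 4768, 4057 and 9078 CPM. Replicate 2 was thus lowest in these Cyp2c genes, Mki67 and albumin and highest in Lcn2. Apoa1, a hepatocyte marker like albumin, was at 8452, 7706 and 7257 CPM, with replicate 3 lowest. Summed over their lists, hepatocyte markers were at 66919 to 80172 CPM in old at 48 and 68044 to 79350 CPM in young at 48, with 1 hepatocyte marker called higher and 3 lower in old at 48 against before. Kupffer cell and macrophage markers (6 of 6 in the tables) summed to 104 to 658 CPM in old at 48 and 424 to 600 CPM in young at 48. Neutrophil markers (3 of 4) summed to 5.32 to 32.0 CPM and 1.72 to 7.19 CPM, and cholangiocyte markers (5 of 5) to 56.7 to 215 CPM and 28.6 to 40.4 CPM. Endothelial markers (5 of 5) summed to 202 to 286 CPM in old and 166 to 250 CPM in young, stellate cell markers (6 of 6) to 340 to 509 CPM and 263 to 363 CPM, and T and B cell markers (4 of 5) to 0.203 to 3.27 CPM and 1.29 to 2.61 CPM. Of 4 red blood cell markers 0 had a row. The part of these differences in the members' levels was not tested.

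Few members were called between the ages at the other time points. Before, at 72, at 120 and at 240 the number of members called was 0, beside 0.0595%, 0%, 0.0819% and 0.0149% of all genes (higher 0.0372%, 0%, 0.0372% and 0.0149%, lower 0.0223%, 0%, 0.0447% and 0%). At an unadjusted p under 0.05 there were 4, 2, 3 and 1, and DESeq2 called 0 at each. Some members that were not called had groups that did not overlap. How often groups of 3 libraries do not overlap over all genes was not counted, so no age difference is read from this. Cyp2e1 was at 2790 to 3347 CPM in young and 1733 to 2215 CPM in old before (-0.70 ± 0.35, adjusted p = 0.710). It was at 2269 to 2437 against 665 to 1840 CPM at 120 (-0.96 ± 0.35, adjusted p = 0.340) and 2765 to 3454 against 1179 to 2373 CPM at 240 (-0.72 ± 0.35, adjusted p = 0.980). Cyp2c54 was at 126 to 269 CPM in young and 11.2 to 92.3 CPM in old before (-2.02 ± 0.73, adjusted p = 0.489). At 96 Cyp2d22 alone was called (0.402% of genes, 0.26% higher and 0.141% lower), with 294, 268 and 281 CPM in young and 166, 166 and 194 CPM in old (-0.68 ± 0.15, adjusted p = 0.0485). That call was lost without any 1 of the 3 young or of old replicates 1 and 2 at 96 (adjusted p 0.0981 to 0.245).

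Averaged over the 6 time points, 6 members were lower in old liver and 0 higher, beside 2.69% of all genes lower, 3.45% higher and 6.13% in either direction. They were Cyp2c54 (-1.16 ± 0.29, adjusted p = 0.0152), Cyp3a11 (-1.02 ± 0.28, adjusted p = 0.0273), Cyp2c29 (-0.82 ± 0.24, adjusted p = 0.0417), Cyp1a2 (-0.78 ± 0.21), Cyp2e1 (-0.63 ± 0.14, adjusted p = 0.00634) and Cyp2d22 (-0.23 ± 0.06). Cyp2e1 had mean levels of 2317 CPM in young and 1466 CPM in old, and the 2 ranges overlapped, as they did for the other 5. The count was 10 without old replicate 2 at 48 and 11 without old replicate 3 at 48. The Cyp2c29 call was lost without any 1 of 21 libraries, and that of Cyp2d22 without young replicate 3 at 72 or young replicate 1 at 120. With the replicate number as a block, Cyp2c29, Cyp2c54, Cyp2d22, Cyp2e1 and Cyp3a11 all lost their calls, and Cyp1a2 kept its call. With only the 24 libraries without Y-linked transcripts, Cyp2c29, Cyp2c54 and Cyp2d22 were not called. The average included 48, where Cyp1a2, Cyp2c29, Cyp2c54 and Cyp3a11 had larger age differences than their averages. None of them was called between the ages at any other time point. Whether they differ with 48 left out was not tested. Cyp2e1 differed by -0.65 at 48, with point estimates from -0.96 at 120 to -0.18 at 72 over the time course.

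With the presence of Y-linked transcripts in the fit the averaged comparison called 15 members, 11 lower and 4 higher, beside 7.84% of all genes (3.6% lower, 4.23% higher). The 4 higher were Cyp3a16, Cyp3a41a, Cyp3a44 and Cyp2a22. All 4 belong to the members that were lower with Y-linked transcripts. The lower ones included both Cyp2d9 (-0.97 ± 0.30, adjusted p = 0.0447) and Cyp2u1 (-0.99 ± 0.19, adjusted p = 0.00104), which were higher with Y-linked transcripts. In the fit without that term none of these 6 was called.

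Within the 24 libraries without Y-linked transcripts (12 of each age, 2 in each group) 9 members were called, 5 lower and 4 higher, beside 3.91% of genes (1.63% lower, 2.27% higher). Cyp3a44 ranged from 21.2 to 271 CPM in young (median 87.8) and from 28.4 to 709 CPM in old (median 393), a log2 difference of 1.70 ± 0.40 (adjusted p = 0.0215). Cyp3a16 ranged from 2.19 to 232 CPM in young (median 35.4) and from 5.87 to 276 CPM in old (median 172), a difference of 2.18 ± 0.51 (adjusted p = 0.0213). Cyp3a41a had medians of 58.3 and 95.7 CPM (1.11 ± 0.27, adjusted p = 0.0244), and Cyp2a22 of 39.5 and 129 CPM (1.34 ± 0.27, adjusted p = 0.00809). The ages overlapped for all 4 genes. At 72, with 2 libraries of each age, the overlap was absent. Cyp3a16 was at 3.06 and 2.19 CPM in young and 206 and 161 CPM in old, and Cyp3a44 at 21.2 and 35.0 CPM against 436 and 384 CPM. How often 2 libraries of each age do not overlap over all genes was not counted, so no age difference is read from this. With the Y-linked term Cyp3a16 was the 1 member called between ages at 72 (adjusted p = 0.0382, beside 0.127% of genes).

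**Figure D5:**
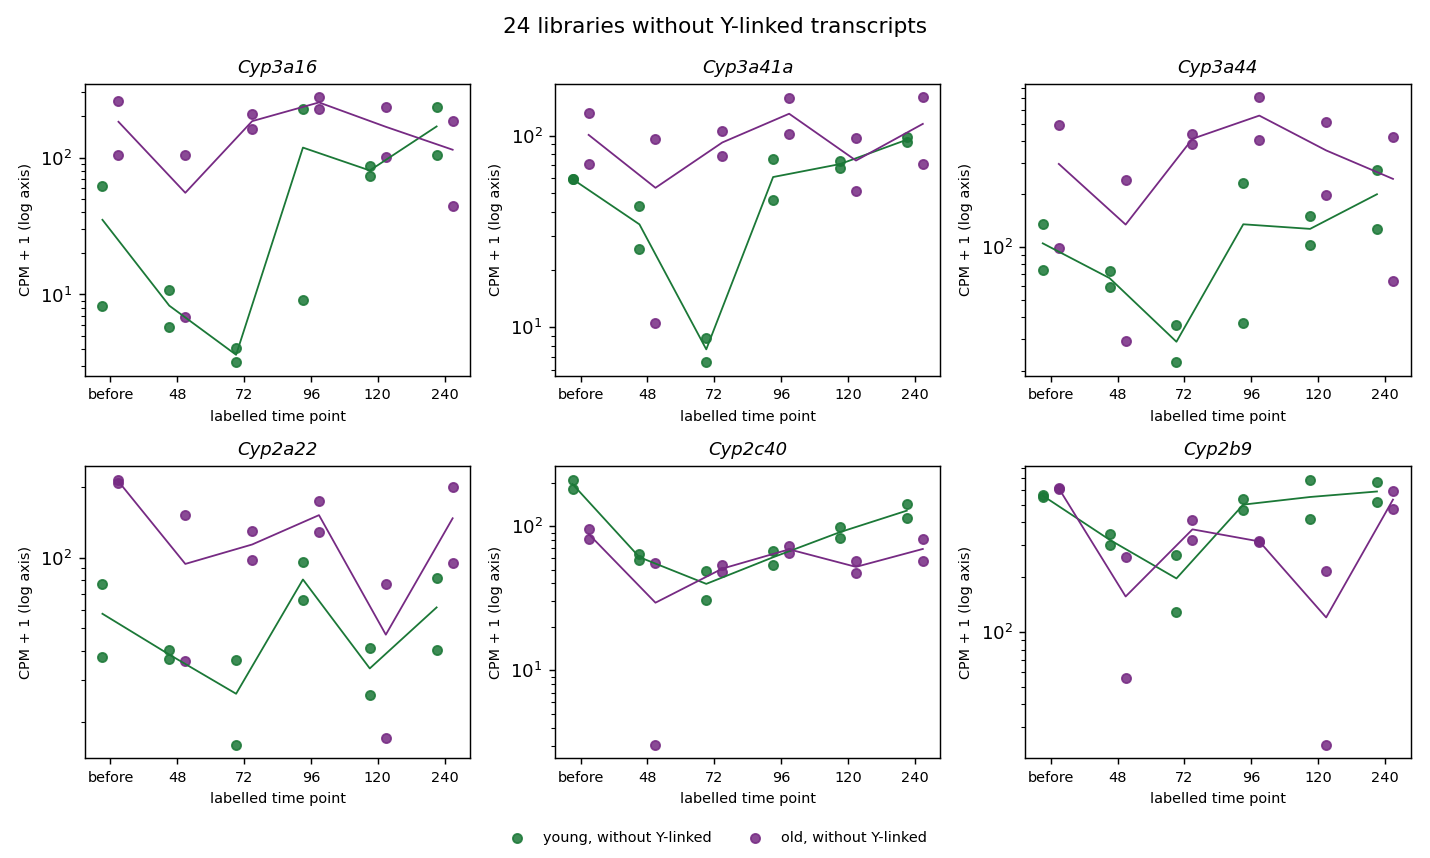
Level of 6 members that were lower with Y-linked transcripts, in the 24 libraries without such transcripts, as CPM + 1 on a log axis by labelled time point, with young in green, old in purple, 1 point per library and lines through means of 2 libraries. Both old points lie above both young points for Cyp3a16, Cyp3a44 and Cyp2a22 at 72, while Cyp2c40 and Cyp2b9 show no such order over the time course.

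Not all members of that direction were higher in old. Cyp2c40, Cyp2c69, Cyp2b9, Cyp2b13 and Cyp2a4 were not called between ages within the 24 libraries. The lower members there were Cyp2u1 (-1.62 ± 0.17, adjusted p = 3.36e-05), Cyp3a11, Cyp2a5 (-1.02 ± 0.17, adjusted p = 0.00262), Cyp1a2 and Cyp2e1. When each of the 24 libraries was left out in turn, Cyp2u1, Cyp2a5 and Cyp2a22 were called in all 24 fits, Cyp2e1 in 20, Cyp3a16 in 19, Cyp3a44 in 17, Cyp1a2 in 15, Cyp3a41a in 13 and Cyp3a11 in 8. The highest adjusted p of any of these fits was 0.0812, for Cyp3a11 without old replicate 2 before, and every fit kept the sign of all 9 genes. In the 12 libraries with Y-linked transcripts, 1 member was called, Cyp2c40 (medians 11.4 CPM in young and 3.30 CPM in old, n = 6 each, log2 difference -1.60, adjusted p = 0.0494, beside 0.765% of genes).

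Genes that serve the P450 enzymes changed in part. Of 9 genes of electron transfer and heme metabolism, 3 fell and 1 rose in young at 48, and 4 fell and 1 rose in young at 72. In old at 48, 4 fell and 0 rose. Over all genes 9.88% were lower and 12.2% higher in young at 48, 8.23% and 9.26% in young at 72, and 12.1% and 12.3% in old at 48. Alas1, the rate-limiting enzyme of heme synthesis, fell in young at 48, from a mean of 591 CPM to 249 CPM (-1.24 ± 0.38, adjusted p = 0.0182). In old at 48 it was at 231, 304 and 222 CPM against 275, 389 and 752 CPM before (-0.90 ± 0.38, adjusted p = 0.0800). Por, which passes electrons to all of these enzymes, had log2 differences of -0.13 ± 0.34 in young and 0.09 ± 0.34 in old at 48, neither called.

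Of 15 tested regulators of P450 genes, 4 fell in young at 48 and 2 in old at 48, with 0 rising in either. Over all genes 9.88% and 12.1% were lower, so the share of regulators in old at 48 was near that of all genes. Between ages at 48 the count was 0 of 15, with Ahr at 125, 164 and 147 CPM in young and 227, 144 and 265 CPM in old (0.55 ± 0.22, adjusted p = 0.112). Between libraries with and without Y-linked transcripts 2 were lower, Nr1i3 (-0.62 ± 0.14, adjusted p = 0.00546) and Nr1i2 (-0.34 ± 0.11, adjusted p = 0.0421). Of 8 genes of growth hormone signalling and of known sex-dependent regulators, 5 were lower and 0 higher in that comparison, beside 3.88% and 4.61% of all genes. Cux2, a repressor and activator known from female mouse liver, ranged from 0 to 9.67 CPM in the 12 libraries with Y-linked transcripts and from 12.6 to 106 CPM in the other 24, with no overlap (-4.29 ± 0.42, adjusted p = 1.51e-08). Bcl6, a repressor known from male liver, had medians of 37.7 and 34.5 CPM (0.26 ± 0.19, adjusted p = 0.470).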

How the data were processed

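Total RNA of 36 mouse livers was sequenced after ribosomal RNA depletion. The deposited values are whole-number counts per gene symbol, 1 table per library, made by the authors. The submitters' processing notes name bcl2fastq 2.20.0, Trimmomatic 0.39, FastQC 0.11.9, STAR 2.7.5b, SAMtools 1.10, Picard 2.20.8, deepTools 3.5.0 and featureCounts, and the builds GRCm38 and mm10. The annotation, the use of strand and the handling of multi-mapped reads are not given in the sources used here, so overlapping and near-identical genes are uncertain. Spike-in rows were not used here, so changes in total RNA per cell cannot be seen.

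Counts were fitted with edgeR 4.0.16 in R 4.3.3: TMM scaling (factors 0.930 to 1.133), filterByExpr, 1 mean per group over all 36 libraries, and quasi-likelihood F tests adjusted by Benjamini-Hochberg within each comparison. Standard errors are the log2 difference divided by the root of F. The split of libraries was made at a summed CPM of 10 over 4 Y-linked genes, and its test added 1 term to the group means. DESeq2 1.42.0, other scalings, no filter, smaller fits, a replicate block and leaving out libraries were alternatives. The procedure was also run on simulated data. There all genes had the same spread and no library stood apart, so that run does not measure errors in the present data.

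The members, gene lists and tests were chosen with earlier results of these data known. Named by rule were 17 fixed members and, per comparison, up to 3 called members in each direction with the largest difference and a mean CPM of at least 1 (for the interaction, the 3 smallest p). Other members named, such as Cyp2a22, Cyp2c40, Cyp2c67, Cyp2c69, Cyp2d10 and Cyp3a25, were chosen after their values were seen. A Y-linked term for each age, its fit without old replicate 2 at 48, the fit of the 12 libraries alone and leaving out libraries among the other 24 were added after seeing the data.

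Libraries of a group were checked for duplication, and the lowest chi-square per gene between 2 of them was 5.09, so none was counted as the same library. Replicate numbers 1 to 3 recur in every group, and the labels do not say that equal numbers share an animal or batch. Over 90 same-numbered pairs the mean correlation of deviations from the group means was 0.058, and 38 pairs were above 0.1, so the numbers were not taken as pairs. Promoters came from the RefSeq table for GRCm38.p6 and gene positions from GENCODE M21, read with Python 3.11.15 and Biopython 1.88. Of 59 members, 57 matched by symbol and 1 by a synonym (Cyp2c44).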

Additional observations from a re-analysis of the deposited data

Results flagged for a closer look

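Cyp1a2 was listed because its age by time test was called (adjusted p = 0.0227 by edgeR), where 2.91% of all genes were called. It was at 22.4, 30.2 and 110 CPM in old at 48 against 665, 677 and 613 CPM in young. The interaction call was lost without any 1 of 3 libraries at 48 (adjusted p 0.0639 to 0.109). It was also lost with only the 24 libraries without Y-linked transcripts (adjusted p = 0.0593). Cyp2u1 was listed because its difference between libraries with and without Y-linked transcripts was larger in old than in young liver, by 1.40 on the log2 scale (adjusted p = 0.0142 by edgeR).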

How the results depend on the processing

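Counts of called members were recomputed 319 times over 19 comparisons, and 257 stayed within 1.5 times. Of 66 called changes of single members, 839 of 1000 refits kept the call, 161 lost it and 0 reversed. The causes were not tested. With the Y-linked term the counts became 9 for young at 72, 4 for old at 72, 14 for old against young at 48, 1 for the same at 72, 15 for the average and 2 for the interaction. With only the 24 libraries without Y-linked transcripts they were 13 for young at 72, 4 for old at 72, 1 for old at 96, 4 for old at 120, 1 for old against young before, 5 at 48 and 0 at 96, and 0 for the interaction. With only the 12 others the average gave 1. With only the 2 groups compared the counts were 11 for young at 72, 1 for young at 96, 1 for young at 120, 1 for old at 48, 1 for old at 120, and 0 for old against young at 48 and 0 at 96. DESeq2 gave 1 for young at 96 and 1 for old at 120. For old at 96, median-of-ratios scaling, total-count scaling and no filter each gave 1. For old against young at 96, median-of-ratios scaling and no filter gave 0.

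With the replicate number as a block (replicate block) the count for old at 72 was 4 and the average fell to 2 members, and no other count moved by over 1.5 times. Leaving out 1 library at a time gave 3 to 6 members for young at 48, 3 to 7 for young at 72, 0 to 1 for young at 96, 7 to 20 for old at 48, 1 to 4 for old at 72, 0 to 2 for old at 96 and 0 to 1 for old at 120. It gave 3 to 15 for old against young at 48, 0 to 1 at 96, 4 to 11 for the average and 0 to 3 for the interaction, and 0 throughout for the remaining comparisons. The comparison of libraries with and without Y-linked transcripts was refitted without 1 library only, old replicate 2 at 48, and gave 25, and within young or old alone 16 or 15. Depth limits Cyp1a1, Cyp2g1 and Cyp2d11, whose levels lie near 3 counts in many libraries.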
